A study of Mus musculus with 4 samples.

Results

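The cholesterol and fatty acid synthesis genes are 30 mouse genes for the enzymes that build sterols and long-chain fatty acids from acetyl-CoA, and for the proteins that sense sterols and set the output of those enzymes. They were chosen by name, and each was read from the row of the deposited table that carried its symbol, using the row with the highest mean level where there were several. All 30 had a row among the 27542 genes and transcribed loci of the table, and 29 had a level above 0. RNA was sequenced from embryonic stem (ES) cells of the mouse line TBV2, either with T-UCstem1, a long noncoding RNA, knocked down (KD) or with a non-targeting control (NT). The KD group was 3 clones and the NT group 1 library. Serum and LIF, which keeps ES cells undifferentiated, were in the medium of both groups, and the study's design text also names feeders and dense culture. The 3 clones were combined by the authors into 1 FPKM per gene (fragments counted per kilobase of a transcript and relative to library size), so each condition has 1 value and no value below carries an SD. The knockdown construct and how the clones were picked are not described in the labels, and the level of T-UCstem1 was not analysed here.

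Cells make cholesterol by condensing acetyl-CoA into mevalonate, turning mevalonate into isoprenoid units, joining these into squalene and closing squalene into the sterol ring. Fatty acids come from the same acetyl-CoA, which Acly releases from citrate, Acaca activates, Fasn strings together and Elovl6, Scd1 and Scd2 lengthen and desaturate. When membrane sterol is low, Scap escorts the transcription factors SREBP1 and SREBP2, encoded by Srebf1 and Srebf2, out of the endoplasmic reticulum, and their released fragments switch on most genes of both routes. Insig1 holds Scap back when sterol is plentiful. In ES cells, which divide quickly, both routes supply new membrane. SREBPs bind promoters together with the general factors NF-Y, which recognises CCAAT, and Sp1, which recognises GC boxes.

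Of these genes 1 passed the authors' test, and 22 of the 29 with a level above 0 differed by no more than 25% between KD and NT cells, close to the 70.3% of all rows at 1 FPKM or more. Scd2, a stearoyl-CoA desaturase that puts the double bond into oleate and palmitoleate, fell to 34.4 FPKM in KD cells, against 66.8 FPKM in NT cells. Me1, the cytosolic malic enzyme that supplies NADPH for fatty acid synthesis, stood at 15.1 FPKM in KD cells and 7.54 FPKM in NT cells and was not called. Lss, lanosterol synthase, stood at 14.1 FPKM in KD cells and 23.7 FPKM in NT cells and was not called either. Of the 29 tested members 0 were called higher, 1 was called lower and 28 did not pass Cuffdiff's test in the authors' deposited table. Over all 15477 tested rows 1.15% were called, 0.963% higher and 0.187% lower. At a deposited p of 0.05 without adjustment, 1 member was higher and 2 were lower, against 6.1% and 2.78% of all tested rows, or 8.88% in all. At a deposited q of 0.10 the call was still Scd2 alone, where 1.71% of tested rows passed, 1.4% higher and 0.304% lower.

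The log2 folds below compare KD with NT after 1 was added to each FPKM, and a positive value is higher in the KD. The median of the 29 members at 1 FPKM or more in either condition was -0.094, with quartiles of -0.24 and 0.039, and 10 lay above 0 and 19 below. Over all 12330 rows with a gene symbol at that level the median was 0.022, with quartiles of -0.16 and 0.22. The count of 22 members that differed by no more than 25% was taken on that scale. Here and throughout, the 25% is of the lower of the KD and NT values. Past 1.5-fold, 1 member was higher and 2 were lower, where 7.63% of all such rows were higher and 3.62% lower. Past 2-fold lay 0 members, where 3.13% of all such rows were higher and 0.543% lower. These shares describe the members and were not tested.

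**Figure D1:**
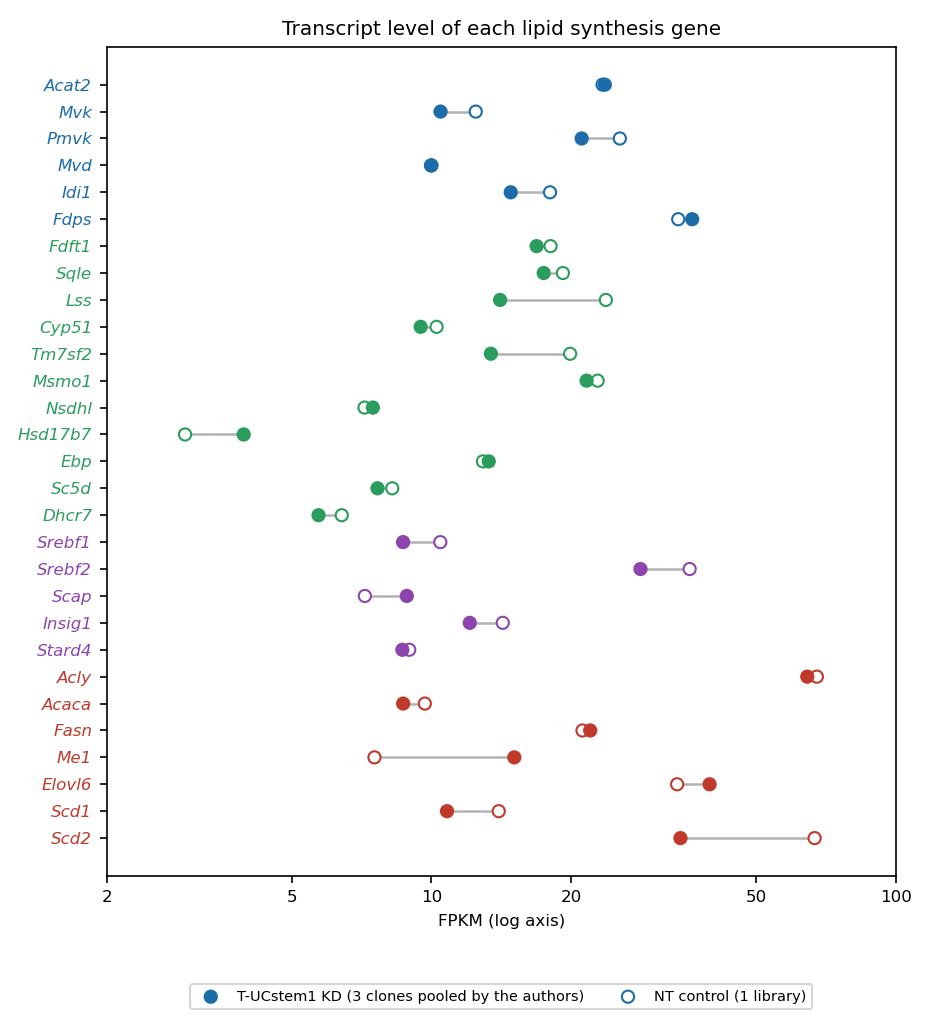
FPKM of the 29 members with a level above 0 in KD cells (filled circles, 3 clones pooled by the authors) and NT cells (open circles, 1 library), on a log axis. Colours mark the mevalonate pathway (blue), squalene to cholesterol (green), sterol sensing and transport (purple) and fatty acid synthesis (red). The longest gaps are those of Scd2 (34.4 against 66.8 FPKM), Me1 (15.1 against 7.54 FPKM) and Lss (14.1 against 23.7 FPKM).

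The mevalonate pathway leads from acetyl-CoA to farnesyl diphosphate, the last precursor that sterols share with prenylated proteins and dolichol. Its 6 measured enzymes summed to 116 FPKM in KD cells and 123 FPKM in NT cells, all 6 differed by no more than 25%, and none was called. Acat2, the thiolase that makes acetoacetyl-CoA, was at 23.6 FPKM in KD cells and 23.4 FPKM in NT cells. The kinases Mvk and Pmvk, which phosphorylate mevalonate in turn, were slightly lower in the KD. Mvk was at 10.5 FPKM in KD cells and 12.5 FPKM in NT cells, and Pmvk at 21.1 FPKM in KD cells and 25.4 FPKM in NT cells. Mvd, the decarboxylase that yields the isoprenoid unit, was at 9.9997 FPKM in KD cells and 9.9749 FPKM in NT cells. Idi1, which isomerises that unit, was at 14.8 FPKM in KD cells and 17.996 FPKM in NT cells. Fdps, which joins the units into farnesyl diphosphate, was the most abundant of the 6, at 36.4 FPKM in KD cells and 33.98 FPKM in NT cells. Log2 folds in this group ran from -0.26 to 0.097, and the authors' deposited table gave each a q of 0.999. Hmgcs1, the synthase that makes HMG-CoA, had 2 rows of 17910 bases each on the unplaced part of chromosome 13, listed at 0 in both conditions and not tested, so its level was not analysed here.

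The second stretch of the pathway runs from squalene through lanosterol to cholesterol. Its 11 enzymes summed to 131 FPKM in KD cells and 152 FPKM in NT cells, with a median log2 fold of -0.094, and none was called. Fdft1 is squalene synthase and Sqle the oxygen-dependent epoxidase that follows it, and both differed by no more than 25%. Fdft1 was at 16.8 FPKM in KD cells and 18.05 FPKM in NT cells, and Sqle at 17.4 FPKM in KD cells and 19.2 FPKM in NT cells. Lss, which closes the ring, had the lowest value of the group, with a log2 fold of -0.72, and the authors' deposited table gave it a p of 0.0114 and a q of 0.271. Cyp51, which removes a methyl group from lanosterol, was at 9.48 FPKM in KD cells and 10.3 FPKM in NT cells. Msmo1 and Nsdhl, which take part in removing the remaining methyl groups, also differed little. Msmo1 was at 21.6 FPKM in KD cells and 22.8 FPKM in NT cells, and Nsdhl at 7.48 FPKM in KD cells and 7.18 FPKM in NT cells. Hsd17b7, the ketoreductase that works with them, was the least abundant member above 0, at 3.94 FPKM in KD cells and 2.95 FPKM in NT cells, and had the highest log2 fold of the sterol enzymes at 0.32. The 61 genes within 5 Mb of it on chromosome 1 had a median of 0.20.

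The remaining enzymes of the group work on double bonds of the ring. Ebp, the sterol isomerase, was at 13.3 FPKM in KD cells and 12.9 FPKM in NT cells, and Sc5d, a sterol desaturase, at 7.65 FPKM in KD cells and 8.23 FPKM in NT cells. Dhcr7, the reductase that yields cholesterol, was at 5.71 FPKM in KD cells and 6.41 FPKM in NT cells. All 3 differed by no more than 25%. Tm7sf2, a sterol reductase, was at 13.4 FPKM in KD cells and 19.9 FPKM in NT cells, with a log2 fold of -0.53, and its q was 0.768 by the authors' deposited table. That row also carries the symbol of its neighbour Vps51, a vesicle tethering gene, so the share of each gene is uncertain. A row of Tm7sf2 alone was at 0.356 FPKM in KD cells and 0.561 FPKM in NT cells.

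The value of Lss stood beside those of its chromosomal neighbours. Lss lies on chromosome 10 (75994316 to 76024971, mm9), and 141 of the 148 other genes at 1 FPKM or more that start within 5 Mb of it had a log2 fold below 0, with a median of -0.53. The log2 fold of Lss minus that median was -0.18. From 65 to 100 Mb of chromosome 10, limits set after the values were seen, 264 genes had a median log2 fold of -0.48, and 242 of them lay below 0. The other 334 genes of the chromosome had a median of 0.012. No member other than Lss had such a neighbourhood: for the other 28 members above 0 FPKM the median of the genes within 5 Mb ran from -0.079 to 0.20. For Scd2 that median was -0.079 and for Me1 0.082. What sets the level of this stretch of chromosome 10 was not tested, and with the 3 clones pooled and 1 NT library it cannot be told which of the 4 libraries carry the difference.

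**Figure D2:**
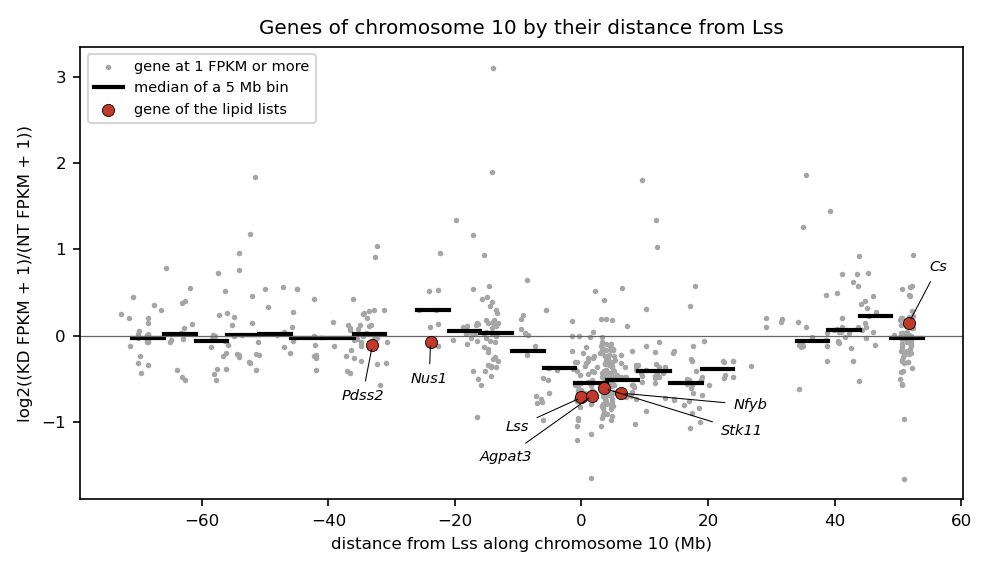
Log2 fold of each gene of chromosome 10 at 1 FPKM or more (grey points) against its distance from Lss in Mb. Black lines are medians of 5 Mb bins with at least 8 genes and red points the genes of the lipid lists. Lss (-0.72), Agpat3 (-0.70), Stk11 (-0.61) and Nfyb (-0.67) lie in a stretch whose 264 genes had a median of -0.48, and Pdss2, Nus1 and Cs lie outside it.

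Of the regulators, Srebf2, which mainly drives cholesterol genes, was the most abundant, at 28.2 FPKM in KD cells and 36.0 FPKM in NT cells, with a log2 fold of -0.34, and its q was 0.899 by the authors' deposited table. Srebf1, which mainly drives fatty acid genes, was at 8.69 FPKM in KD cells and 10.4 FPKM in NT cells. The level of Srebf2 was thus 3.24 times that of Srebf1 in KD cells and 3.44 times in NT cells. Insig1, the sterol-dependent brake and itself a target of SREBPs, was at 12.1 FPKM in KD cells and 14.2 FPKM in NT cells. Scap, the escort, was at 8.85 FPKM in KD cells and 7.19 FPKM in NT cells, the only one of the 5 with a log2 fold above 0. Stard4, which carries cholesterol between membranes, was at 8.65 FPKM in KD cells and 8.96 FPKM in NT cells. The 5 had a median log2 fold of -0.22, and none was called or past 1.5-fold.

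The fatty acid enzymes held the most abundant members and the widest spread, with log2 folds from -0.94 to 0.91. Acly, ATP citrate lyase, had the highest level of all members, at 64.4 FPKM in KD cells and 67.6 FPKM in NT cells. Acaca, acetyl-CoA carboxylase, was at 8.69 FPKM in KD cells and 9.68 FPKM in NT cells, and Fasn, fatty acid synthase, at 21.97 FPKM in KD cells and 21.1 FPKM in NT cells. These 3 enzymes, which carry carbon from citrate to palmitate, all differed by no more than 25%. Elovl6, which lengthens palmitate to stearate, was at 39.7 FPKM in KD cells and 33.8 FPKM in NT cells. Me1 had the highest log2 fold of all members, 0.91, and the authors' deposited table gave it a p of 0.00505 and a q of 0.171.

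Scd2 (chromosome 19, 44367929 to 44381352) had a log2 fold of -0.94, or 1.94-fold lower in KD cells without the pseudocount. The authors' deposited table gave it a p of 5e-05 and a q of 0.00815. That p is the smallest value the table holds and is shared by other rows, Lrpap1 and several endoderm markers among them, so it does not rank Scd2 above them. Scd1, its neighbour on the same chromosome (44468940 to 44482199) and the main desaturase of adult liver, was at 10.8 FPKM in KD cells and 14.0 FPKM in NT cells, with a log2 fold of -0.34 and, by the authors' deposited table, a q of 0.922. Scd1 and Scd2 together summed to 45.2 FPKM in KD cells and 80.8 FPKM in NT cells, and Scd2 made up 76.1% of that sum in KD cells and 82.7% in NT cells. The paralogs Scd3 and Scd4 were near 0, and with them the sum was 45.8 FPKM in KD cells and 81.5 FPKM in NT cells. The open reading frames of Scd2 and Scd1 were 90.4% identical in the GENCODE transcripts of the later build GRCm38, but 2.68% of the 5406 windows of 50 bases in the Scd2 transcript occurred unchanged in that of Scd1. The sources used here do not say how reads of the shared windows were counted. Scd2 made up 51.2% of the net difference in summed level over all members, which came to 509 FPKM in KD cells and 572 FPKM in NT cells. Without it the members summed to 474 FPKM in KD cells and 505 FPKM in NT cells.

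**Figure D3:**
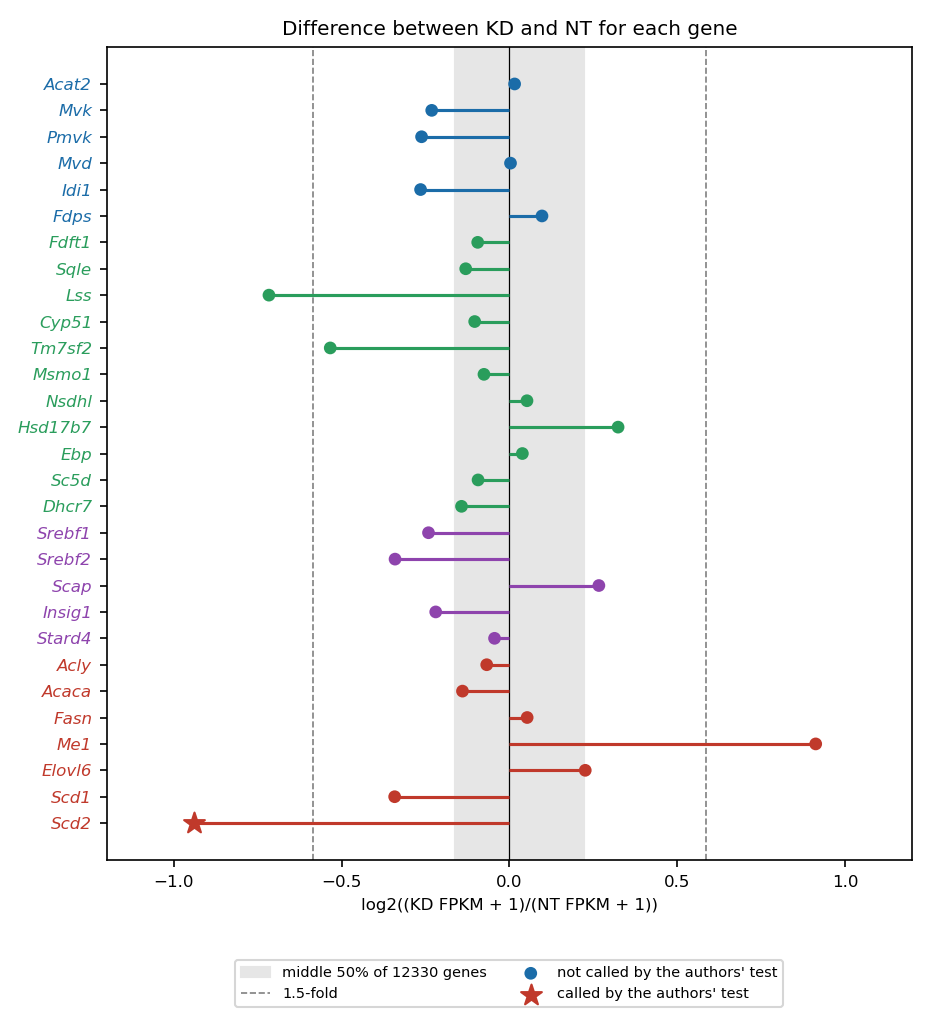
Log2 fold of each member, ordered by its step, with KD over NT and a pseudocount of 1. The star marks Scd2, the member called in the authors' test, the grey band spans the quartiles of all rows with a symbol at 1 FPKM or more (-0.16 to 0.22) and dashed lines mark 1.5-fold. Scd2 (-0.94), Lss (-0.72) and Me1 (0.91) lie past the dashed lines, and the other members lie between them.

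The size of a difference that could be called sets how far the uncalled members can be read. Among 8357 tested rows with a symbol and a mean level within that of the members, 3.44 to 66.0 FPKM, 98 were called higher and 17 lower. The smallest log2 fold called higher was 0.84 and the smallest called lower was -0.83. Of 185 such rows at least 2-fold higher 92 were called, and of 37 at least 2-fold lower 11 were called. No such row with a smaller difference than 0.84 or -0.83 was called, and many with a larger one, Me1 among them, were not called either. A q past the threshold does not show that KD and NT levels were equal.

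**Figure D4:**
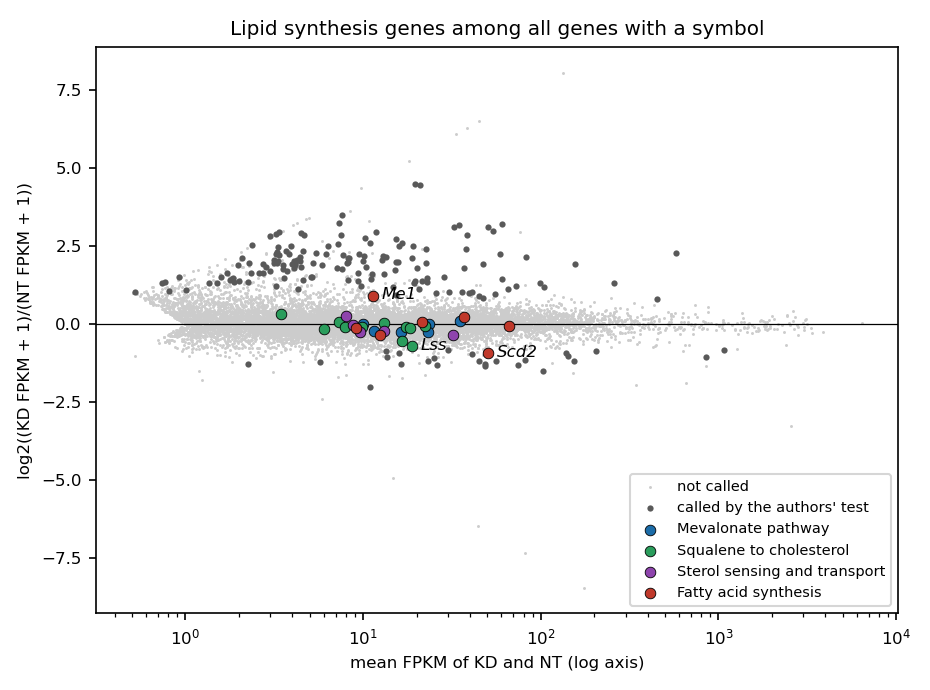
Log2 fold against mean FPKM (log axis) for rows with a symbol at 1 FPKM or more, with rows called by the authors in dark grey and the 29 members in colour by step. The members lie between 3.44 and 66.0 FPKM, and all but Scd2, Lss and Me1 lie within 1.5-fold.

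The promoters of these genes share sequence features that the choice of members did not use. RefSeq windows from 250 bases before to 50 bases after the transcription start, on GRCm38.p6, were at hand for 24 of the 30 members, which leaves out Scd2, Scd1, Sqle, Fdps, Fdft1 and Stard4. CCAAT, searched on both strands, occurred in 20 of the 24, against 41.1% of all 27025 genes with such windows. GGGCGG, a GC box, occurred in 20 of 24, against 38.2% of all genes, and the E-box CACGTG in 5 of 24, against 8.09%. A strict sterol regulatory element, TCACNCCAC, occurred in the Hmgcs1 window and in 1.44% of all genes. Such a match is a description of the letters in the window, not a mapped binding site. The shares of all genes were taken without regard to level, and the members were not compared with genes of like level. The windows of 4 members are shown as examples of genes with and without a sizeable difference: Mvk and Fasn held several CCAAT boxes and differed by no more than 25%, and Lss and Me1 had lower and higher values in KD cells without a call. Capitals mark CCAAT or its reverse complement ATTGG, which overlap at 1 place in Fasn. The Me1 window shown is the one of its 2 windows that lies farther upstream, and it held no CCAAT and 4 GGGCGG. The other Me1 window held 1 CCAAT, at -208 from the start, and through it Me1 is among the 20 members with CCAAT.
Mvk, chr5:114444019-114444318, plus strand: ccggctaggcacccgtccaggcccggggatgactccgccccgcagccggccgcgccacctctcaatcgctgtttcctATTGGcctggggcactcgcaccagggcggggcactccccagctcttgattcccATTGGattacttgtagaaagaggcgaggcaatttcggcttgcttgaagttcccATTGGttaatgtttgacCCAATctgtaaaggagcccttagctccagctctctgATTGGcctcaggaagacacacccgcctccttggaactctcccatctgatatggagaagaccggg
Lss, chr10:76531355-76531654, plus strand: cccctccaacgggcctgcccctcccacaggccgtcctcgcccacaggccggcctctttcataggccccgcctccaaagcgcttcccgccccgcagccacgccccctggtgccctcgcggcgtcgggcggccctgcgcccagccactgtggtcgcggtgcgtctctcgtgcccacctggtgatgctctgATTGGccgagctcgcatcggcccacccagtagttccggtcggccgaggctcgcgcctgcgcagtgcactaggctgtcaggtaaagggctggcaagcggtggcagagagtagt
Fasn, chr11:120824498-120824797, minus strand: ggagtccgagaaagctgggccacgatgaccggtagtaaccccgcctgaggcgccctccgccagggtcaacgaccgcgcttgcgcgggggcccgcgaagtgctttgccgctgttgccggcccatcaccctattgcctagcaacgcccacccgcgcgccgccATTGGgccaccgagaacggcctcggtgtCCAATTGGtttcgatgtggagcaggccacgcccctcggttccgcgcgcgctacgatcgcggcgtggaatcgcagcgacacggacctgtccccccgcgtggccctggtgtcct
Me1, chr9:86695865-86696164, minus strand: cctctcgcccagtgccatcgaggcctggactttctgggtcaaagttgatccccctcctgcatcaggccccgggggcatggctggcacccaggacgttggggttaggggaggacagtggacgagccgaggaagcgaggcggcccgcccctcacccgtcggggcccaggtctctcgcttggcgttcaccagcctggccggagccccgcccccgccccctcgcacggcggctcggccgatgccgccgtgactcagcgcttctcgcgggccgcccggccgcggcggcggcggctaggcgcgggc

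Genes around the pathway were examined in lists of related function. Among 16 tested other sterol-response genes none was called, 12 of the 15 at 1 FPKM or more differed by no more than 25%, and the median log2 fold was -0.024. Insig2, the paralog of Insig1, was at 17.1 FPKM in KD cells and 23.4 FPKM in NT cells. Fabp5, a fatty acid binding protein, was at 31.7 FPKM in KD cells and 21.2 FPKM in NT cells, and Elovl5, which lengthens polyunsaturated fatty acids, at 30.3 FPKM in KD cells and 30.4 FPKM in NT cells. None of the 13 genes that process or restrain SREBPs was called, with a median of 0.068. Mbtps1, the protease that first cuts SREBPs, was at 44.4 FPKM in KD cells and 43.9 FPKM in NT cells. The 14 genes of the isoprenoid branches had no call and a median of -0.15. The lowest of them, Rabggta, a subunit of the enzyme that prenylates Rab proteins, was at 26.8 FPKM in KD cells and 41.6 FPKM in NT cells, and the authors' deposited table gave it a q of 0.352.

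Sterol transport held the other call among the lipid lists. Lrpap1, a chaperone that keeps lipoprotein receptors free of ligand in the endoplasmic reticulum, rose to 90.5 FPKM in KD cells, against 40.8 FPKM in NT cells, with a log2 fold of 1.13, and its q was 0.00815 by the authors' deposited table. Of the 20 tested members of that list 1 was called higher, none lower and 19 did not pass, against 0.963% and 0.187% of all tested rows called, and the median was -0.060. Apoe, the lipoprotein ligand, was at 337 FPKM in KD cells and 545 FPKM in NT cells, and its q was 0.130 by the authors' deposited table. Soat1, which esterifies cholesterol for storage, was at 14.2 FPKM in KD cells and 8.90 FPKM in NT cells, and Nr1h2, the sterol-sensing receptor LXR beta, at 25.3 FPKM in KD cells and 36.5 FPKM in NT cells. Neither was called.

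None of the tested genes was called in the lists of fatty acid elongation and activation (16 genes, median 0.029), glycerolipid synthesis (20 genes, median 0.081), citrate and NADPH supply (12 genes, median 0.14), fatty acid oxidation (18 genes, median -0.12) or lipid control factors (18 genes, median -0.0086). At an unadjusted p of 0.05 in the authors' deposited table, 8 of the 146 tested genes of the lipid lists around the members were higher and 8 lower, where 6.1% and 2.78% of all tested rows were. Elovl7, an elongase, was at 2.84 FPKM in KD cells and 5.98 FPKM in NT cells, with a log2 fold of -0.86, and its q was 0.195 by the authors' deposited table. Plin2, which coats lipid droplets, was at 22.1 FPKM in KD cells and 10.2 FPKM in NT cells, with a log2 fold of 1.05, and its q was 0.116 by the authors' deposited table. Dgat2, which makes triglyceride, was at 6.69 FPKM in KD cells and 3.75 FPKM in NT cells. Me2, the mitochondrial relative of Me1, was at 39.5 FPKM in KD cells and 31.9 FPKM in NT cells. Nfyb, the subunit of NF-Y on chromosome 10, was at 47.9 FPKM in KD cells and 76.6 FPKM in NT cells, and the authors' deposited table gave it a q of 0.192. Its partner Nfyc was at 38.6 FPKM in KD cells and 30.2 FPKM in NT cells.

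Markers of ES cells and of other cell types were counted in the same way. Of 12 endoderm markers 11 were called higher, and the 12 summed to 714 FPKM in KD cells and 126 FPKM in NT cells. Of 10 tested genes listed as fibroblast markers 5 were called higher (Pdgfra, Tnc, Bgn, Fbln2 and Ccl2), where 0.963% of all tested rows were. A gene on this list need not be particular to fibroblasts, and which cells carried these transcripts was not tested. Col1a1, Col1a2, Thy1, Dcn and Pdgfrb were tested and not called. Col1a1 was at 3.63 FPKM in KD cells and 0.920 FPKM in NT cells, and Pdgfrb at 2.57 FPKM in KD cells and 2.73 FPKM in NT cells. Col3a1, Dcn and Postn were below 1 FPKM in both conditions, and Lum was listed at 0 in both. The 13 listed summed to 105 FPKM in KD cells and 26.8 FPKM in NT cells. The 8 ES cell markers had no call and summed to 5506 FPKM in KD cells and 5224 FPKM in NT cells. Of the 8 adipocyte and hepatocyte markers, Adipoq and Cyp7a1 were listed at 0 in both conditions, and all 8 summed to 2.72 FPKM in KD cells and 0.401 FPKM in NT cells. The part of other cell types in the values of Scd2 and Lrpap1 was not tested, and in bulk RNA fewer cells of a type and less RNA per cell cannot be told apart.

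**Figure D5:**
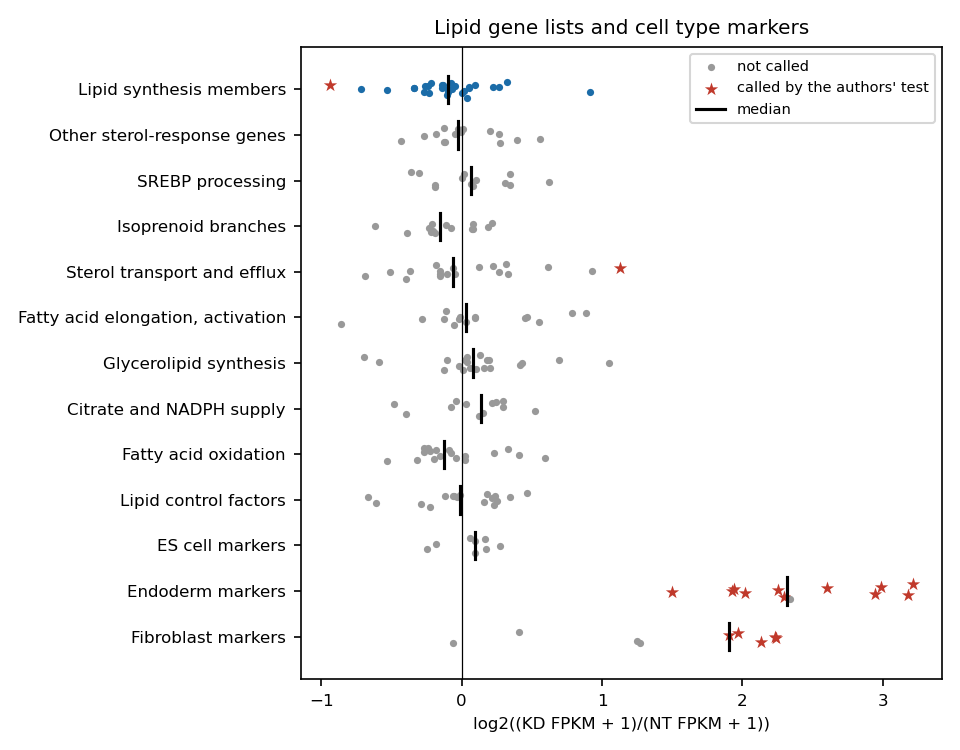
Log2 fold of each gene at 1 FPKM or more in the members, the related lipid lists and the ES cell, endoderm and fibroblast markers, with stars for genes called by the authors and a black line at each median. The 9 lipid lists around the members have medians between -0.15 and 0.14, against 2.32 for endoderm markers.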

How the data were processed

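RNA sequencing libraries of TBV2 ES cells were made from 3 T-UCstem1 KD clones and 1 NT control. The submitters' processing notes name TopHat, Cufflinks, Cuffdiff and mm9, with no version, option, annotation or scaling named there. The deposited FPKM values are 1 per gene and condition, with treated taken as the 3 KD clones together and control as NT, per the file headers. The deposited p-values and q-values are Cuffdiff's, per the file headers. Adjusting the deposited p-values of all 15477 tested rows by Benjamini-Hochberg gave the deposited q to within 5.2e-07. With 1 control library, these p-values hold no measured spread between control cultures. Depth per library is unknown.

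Rows with status OK or NOTEST were used, and log2 folds were recomputed with a pseudocount of 1, which understates the change of low genes. Members are called by the authors' mark, whose largest q was 0.0478. No test was run on FPKM. Row starts were converted to 1-based positions. Members and lists were chosen with earlier results of these data known. Around the members, the text names genes the authors marked, the 2 largest differences each way and the 2 highest means per list at 5 FPKM or more, of which a selection, made after their values were seen, is given. Vps51, Adipoq, Cyp7a1, Pdss2, Nus1, Cs and the single fibroblast markers, Lum included, were named after their values were seen. Counting and adjustment were tested on simulated data. Calculations used Python 3.11.15, pandas 2.3.3 and numpy 2.4.6.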

Additional observations from a re-analysis of the deposited data

How the results depend on the processing

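The call of Scd2 held at a deposited q of 0.10 and with rows of 1 symbol only. Without adjustment, at a deposited p of 0.05, 3 members passed, 1 higher and 2 lower (Me1, Lss and Scd2). Past a difference of 25% of the lower value lay 7 members, 2 higher and 5 lower, against 17.3% and 12.4% of all rows. Past 2-fold lay 0 members, 0 higher and 0 lower, against 3.13% and 0.543%. With the chromosome median subtracted, with chromosomes 6 and 10 left out, or with the median of genes within 5 Mb subtracted, the members past 1.5-fold lower numbered 1, since Lss left the count. The last of these settings, and the one without the Tm7sf2 row, were chosen after seeing the data. Chromosome 10 was listed among those to leave out as higher in the KD, whereas its genes had a median of -0.16. Under pseudocounts of 0.1 and 5, minimums of 0 and 5 FPKM, summed rows and recentring on all genes the member median ran from -0.12 to -0.076, and subtracting the 5 Mb median gave -0.16. No paired analysis was possible because the clones were pooled by the authors into 1 value, and for the same reason no library could be left out.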

Other observations

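The stretch of chromosome 10 that holds Lss also holds 3 other lipid genes past 1.5-fold lower, none of them called by the authors. Its limits were set after the values were seen, and 93 of all its 264 genes were past 1.5-fold lower. Of 172 genes of the lipid lists at 1 FPKM or more, 9 were past 1.5-fold lower in KD cells, where 3.62% of all genes at that level were. On chromosome 10, which carries 4.85% of all genes at that level, lay 4 of the 9. Those 4 were Lss, Agpat3, Stk11 and Nfyb, between 76.0 and 82.2 Mb. Agpat3, an acyltransferase of phospholipid synthesis, was at 10.4 FPKM in KD cells and 17.4 FPKM in NT cells. Stk11, the kinase LKB1 upstream of AMPK, was at 41.6 FPKM in KD cells and 64.1 FPKM in NT cells. Less the median of the genes within 5 Mb, their log2 folds were -0.18 for Lss, -0.18 for Agpat3, -0.081 for Stk11 and -0.18 for Nfyb. The 3 lipid genes of chromosome 10 outside the stretch were Pdss2, Nus1 and Cs, with log2 folds of -0.11, -0.072 and 0.15. Over all genes, 97 of the 446 past 1.5-fold lower (21.7%) lay on chromosome 10. This was noticed in the data, and its cause was not tested.

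A smaller case lay on chromosome 1. Idh1, the cytosolic isocitrate dehydrogenase that supplies NADPH, was at 32.6 FPKM in KD cells and 43.3 FPKM in NT cells, with a log2 fold of -0.40, and the 28 genes within 5 Mb of it had a median of -0.45. Hsd17b7, the member on that chromosome, had a log2 fold of 0.32, which was 0.12 above the median of the genes within 5 Mb, of which 13 of 61 lay below 0. Soat1, on the same chromosome, had a log2 fold of 0.62, where the 45 genes within 5 Mb had a median of 0.31. For Scd2, Me1, Lrpap1 and Plin2, named for their large log2 folds, the genes within 5 Mb had medians of -0.079, 0.082, 0.026 and 0.12. Less those medians their log2 folds were -0.86, 0.83, 1.10 and 0.93. They were picked by the size of their folds, so these differences from the neighbours say nothing of a cause, which was not tested.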
